A study of Rattus norvegicus with 13 samples.

Results

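The proteasome is the protease that degrades most short-lived and damaged proteins of the cell, and the genes described here encode its subunits. They were found by symbol, as every gene whose symbol starts with Psma, Psmb, Psmc, Psmd or Psme and a number, read by a probe set with that symbol alone, without the 3 subunits of the immunoproteasome. Of 14217 genes read by such probe sets, 38 matched. Psmc3ip and Psme3ip1, which encode proteins that interact with a subunit, matched by spelling only and were set apart, which left 36 genes. These were 7 genes of the 20S alpha ring, 6 of the 20S beta ring, 6 ATPases and 11 non-ATPase subunits of the 19S regulatory particle, 3 chaperones of 19S assembly and 3 activators. The alpha and beta rings together gave 13 core subunits, and the ATPases and non-ATPases gave 17 regulatory subunits. Psmb6, a catalytic subunit, and Psme3, an activator, were read only by probe sets that carry several symbols and were not analysed here. Where a gene had several probe sets, the one with the highest mean log2 signal over the 13 arrays was taken. All 36 lay above the median mean signal of 29.2 of the probe sets tested.

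Gene expression was measured in left ventricle of pregnant Sprague Dawley rats on an Affymetrix rat genome array, where each probe set reads one transcript with short probes near its 3′ end. The L-NAME-fed group (4 arrays) received NG-nitro-L-arginine methyl ester, an inhibitor of nitric oxide synthase, at 1 g/L in the drinking water, the methionine-fed group (4 arrays) received L-methionine at 9 g/L, a diet used to raise homocysteine, and the control group (5 arrays) received plain water. All rats were pregnant, were treated from day 1 to day 20 and were killed on day 20 or 21. The labels do not mention earlier pregnancies, whereas the methods of the study describe multiparous rats and name 4 control and 4 methionine-fed hearts and no L-NAME-fed hearts, so all 5 control arrays were used. The labels do not state that each array came from a different rat, so that p-values measure the spread between these arrays.

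In the 26S proteasome a barrel of stacked rings, the 20S core, holds the proteolytic sites inside its beta rings, and its outer alpha rings form the gate. The 19S regulatory particle caps the core, where its non-ATPase subunits bind and remove ubiquitin and its ring of ATPases unfolds the substrate and drives it through the gate. In heart muscle the proteasome removes damaged and mistranslated proteins and takes part in the turnover of the sarcomere.

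The L-NAME-fed arrays stood apart from the others in ways that concern every gene. Their median signal was 34.2 to 36.9, against 25.8 to 29.2 on the methionine-fed arrays and 25.7 to 27.2 on the control arrays, although all arrays had been scaled to a trimmed mean of 150. The log2 ratio of 3′ to 5′ signal of beta-actin, a reading of RNA quality and labelling, was 2.32 to 2.70 on the L-NAME-fed arrays, 3.32 to 3.71 on the methionine-fed arrays and 3.31 to 3.67 on the control arrays, and that of Gapdh was 0.44 to 0.66, 0.98 to 1.26 and 1.04 to 1.31 in the same groups. Since these readings do not overlap between L-NAME-fed and control arrays, they cannot be told apart from the treatment. Heart muscle was borne out by ventricular cardiomyocyte markers, of which 12 of 13 were measured. Mean signals of these 12 ran from 1815 for Ckm to 3866 for Myh6. Their summed signal was 25682 to 29525 on L-NAME-fed, 31424 to 42729 on methionine-fed and 37371 to 40735 on control arrays, with 0 of 12 called higher and 9 called lower in L-NAME-fed against control hearts. Among all probe sets tested 28.7% were called higher and 17% lower in this comparison. Above the 95th percentile of the mean signal, where these markers lie, the shares were 8.76% and 64.8%. Of the markers of other cells, endothelium had 1 higher and 4 lower of 8 measured, leukocytes 3 and 5 of 13, fibroblasts 0 and 3 of 8, smooth muscle 2 and 2 of 6, adipocytes 0 and 1 of 5, blood 0 and 1 of 3 and atrium 0 and 0 of 3. The summed endothelial signal was 5592 to 6213 on L-NAME-fed, 6280 to 7325 on methionine-fed and 6879 to 7919 on control arrays, and the summed leukocyte signal was 5505 to 6710, 6843 to 8098 and 7051 to 7640. The summed signal of the 3 measured atrial markers was 713 to 2706 on L-NAME-fed, 311 to 4451 on methionine-fed and 426 to 1118 on control arrays. Whether the arrays differed in their share of atrial tissue was not tested. In tissue RNA, fewer cells of a type and less RNA per cell cannot be told apart, and the part of these markers in the results below was not tested.

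Proteasome genes moved in both directions in L-NAME-fed hearts. Compared with control, 14 of the 36 genes were higher, 11 were lower and 11 did not pass the test (limma on log2 signals of all 31042 probe sets, Benjamini-Hochberg adjusted p under 0.05). Among all probe sets tested 28.7% were higher and 17% were lower, so that 14 and 11 of 36 stand against a background in which calls were common. Among probe sets at or above the median signal, which is the range of these genes, 64.6% were called in either direction, against 69.4% of the proteasome genes. The median log2 change of the 36 genes was 0.044, with a range of -1.09 to 1.57, against a median of 0.22 over all probe sets and 0.067 over those at or above the median signal. The core subunits had 7 higher and 2 lower of 13 with a median of 0.35, and the regulatory subunits had 7 higher and 8 lower of 17 with a median of -0.086. The difference between core and regulatory subunits was not tested, because the genes of a particle are not replicates.

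**Figure D1:**
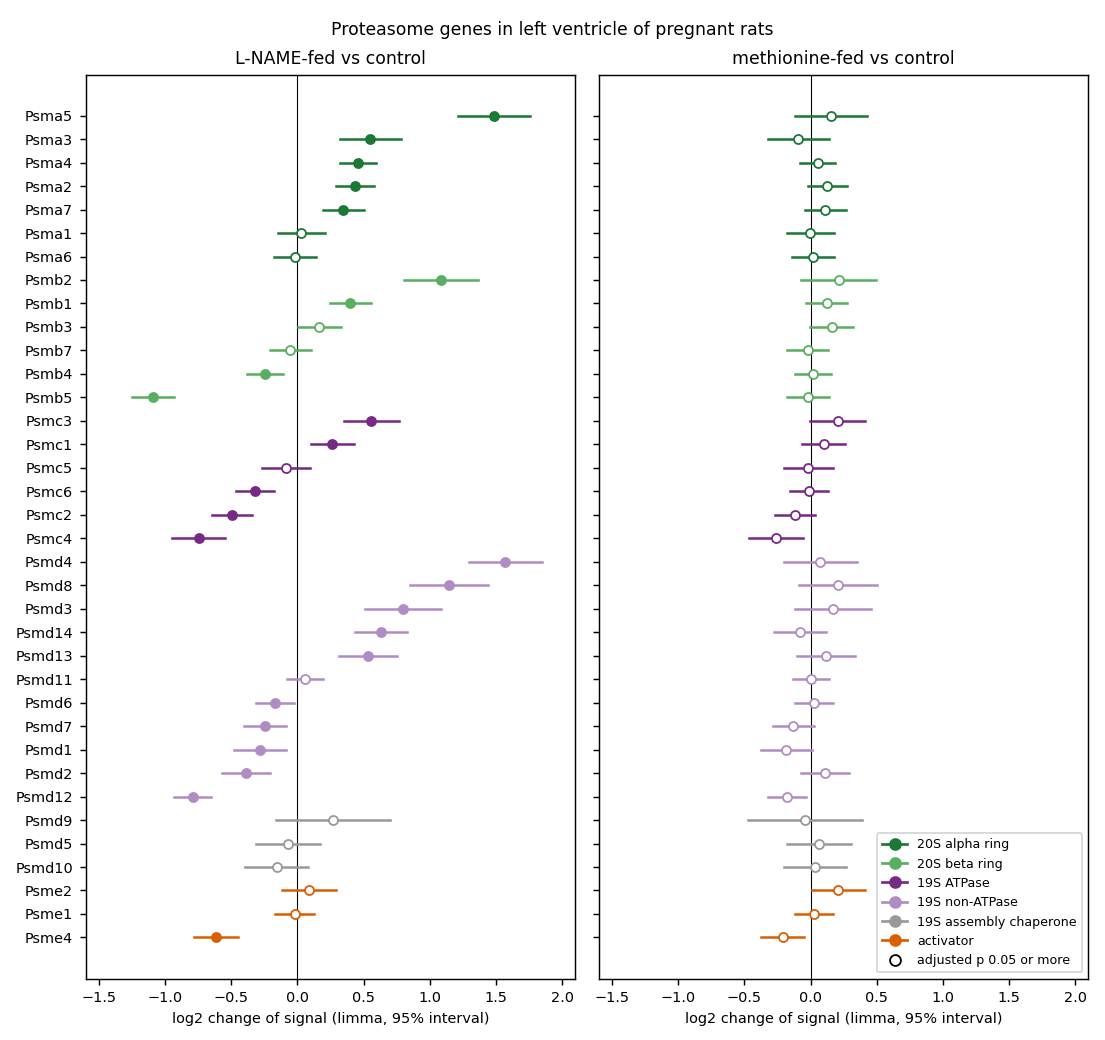
Log2 change of each proteasome gene on the horizontal axis, for L-NAME-fed against control (left) and methionine-fed against control (right). Genes are grouped by class, and bars show the 95% confidence interval. In L-NAME-fed hearts the changes run from -1.09 for Psmb5 to 1.57 for Psmd4, while in methionine-fed hearts all 36 lie between -0.26 and 0.21.

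How many genes passed in each direction depended on how the arrays were scaled to each other. With quantile normalization 22 of the 36 were higher and 7 lower (against 22% and 21.9% of all probe sets), whereas with each array centred on its median log2 signal 5 were higher and 21 lower (against 16% and 29.7%). The median over all probe sets was -0.014 under quantile normalization and -0.21 under centring, and relative to it the median of the 36 genes was 0.32 under quantile normalization and -0.18 under centring, as it was with the signals as deposited. Psmd4, Psma5, Psmd8, Psmb2 and Psmd3 were called higher under all 3 scalings, and Psmb5, Psmd12, Psmc4, Psme4, Psmc2, Psmd2 and Psmd7 were called lower under all 3. These calls are of the brightest probe set, and Psmd7 and Psme4 also had a probe set called higher, given below. The share of all probe sets with the same call under all 3 scalings was not counted. Another 8 genes, Psma1, Psma6, Psmb3, Psmb4, Psmb7, Psmd11, Psme1 and Psme2, were called higher with quantile normalization and lower with centring, so that no direction can be given for them.

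**Figure D2:**
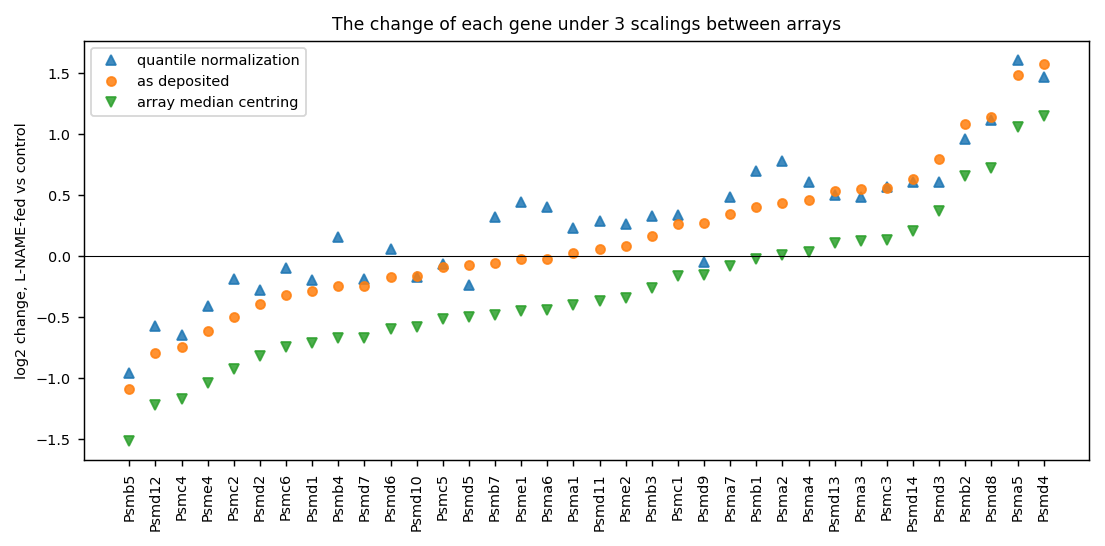
Log2 change of each proteasome gene in L-NAME-fed against control hearts under the signals as deposited, quantile normalization and array median centring. Psmd4, Psma5, Psmd8, Psmb2 and Psmd3 stay above 0 and past the test under each scaling. Psmb5, Psmd12, Psmc4, Psme4, Psmc2, Psmd2 and Psmd7 stay below 0 and past the test under each. Most of the other genes cross 0 in at least one.

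The promoters of the 5 genes with a log2 change above 1 or below -1 in L-NAME-fed against control hearts are shown because proteasome genes are known to be induced together through their promoters. RefSeq promoter sequences (rat build GRCr8, 250 bases before to 50 after the start) were found for 32 of the 36 genes, and Psma7, Psmd6, Psmd12 and Psmd14 had none in the table. They were searched on both strands for CCAAT, the box bound by the factor NF-Y, and for TGACNNNGC, the core of the antioxidant response element, bound by factors of the Nrf family with small Maf proteins. The stretches below run 5′ to 3′ on the strand of the gene from 100 bases before to 20 bases after the start. Capitals mark CCAAT, or ATTGG where the box lies on the other strand, and TGACNNNGC.
Psmd4 promoter, chr2:185297182-185297301, minus strand: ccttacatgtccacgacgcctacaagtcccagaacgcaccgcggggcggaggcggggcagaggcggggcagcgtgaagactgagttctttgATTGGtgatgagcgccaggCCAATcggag
Psma5 promoter, chr2:198584405-198584524, plus strand: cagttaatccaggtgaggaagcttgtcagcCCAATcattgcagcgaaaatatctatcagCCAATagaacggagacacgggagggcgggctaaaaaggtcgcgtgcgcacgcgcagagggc
Psmd8 promoter, chr1:93608670-93608789, minus strand: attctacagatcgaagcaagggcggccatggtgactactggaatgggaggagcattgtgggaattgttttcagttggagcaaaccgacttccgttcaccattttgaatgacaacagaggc
Psmb2 promoter, chr5:144254958-144255077, plus strand: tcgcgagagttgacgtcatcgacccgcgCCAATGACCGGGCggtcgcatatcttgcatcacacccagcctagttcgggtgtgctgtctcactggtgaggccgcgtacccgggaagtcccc
Psmb5 promoter, chr15:32047360-32047479, minus strand: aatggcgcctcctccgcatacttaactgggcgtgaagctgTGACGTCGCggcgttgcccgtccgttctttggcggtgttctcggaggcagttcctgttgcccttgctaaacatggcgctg
The Psmd4 stretch held 2 CCAAT boxes in opposite orientation close to the start, that of Psma5 held 2 that begin 70 and 41 bases before it, and that of Psmb2 held 1 whose last base is the first of a TGACNNNGC match. Psmd8, whose rise was larger than that of Psmb2, had neither motif in the 300 bases. Psmb5, the gene with the largest fall, had a TGACNNNGC match that begins 60 bases before the start and no CCAAT box in the 300 bases.

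CCAAT was present in 16 of the 32 promoters (50.0%), against 37.5% of 33469 promoters of the table. By call in L-NAME-fed against control hearts, it was present in 10 of 12 promoters of genes called higher, 1 of 9 of genes called lower and 5 of 11 of the others. Since the calls change with the scaling, the count was also taken over the genes with the same call under all 3 scalings, where 3 of 5 promoters of higher genes (Psma5, Psmb2 and Psmd4) and 1 of 6 promoters of lower genes (Psmd7) held the box. Another probe set of Psmd7 was called higher, as given below. TGACNNNGC was found in 7 of the 32 (21.9%), against 12.1% of all promoters, with 3 among the higher, 3 among the lower and 1 among the other genes. TGACTCAGC, a full form of the element, was in 0 of the 32 and in 0.42% of all promoters. These are matches of letters and were not tested.

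In the alpha ring, whose subunits form the gate of the core and the surface on which regulators dock, 5 of the 7 genes were higher in L-NAME-fed hearts and 0 were lower. Psma5 had the largest change of the class. Its signal was 1010.1, 1113, 1237 and 1054 on the L-NAME-fed arrays, 563, 369, 379 and 463 on the methionine-fed arrays and 419, 467, 345, 332 and 417 on the control arrays. Every L-NAME-fed array was above every other array, a 2.8-fold difference from control (log2 change 1.49 ± 0.13, adjusted p = 1.87e-07). The exact permutation test over the 4 and 5 arrays gave p = 0.00794, the smallest value that this number of arrays allows (2-sided), and the change was 1.61 with quantile normalization and 1.06 with centring. Psma3, Psma4, Psma2 and Psma7 were higher by 0.55, 0.46, 0.43 and 0.35 on the log2 scale. These 4 calls also stood with quantile normalization and were lost with centring, where the changes were 0.13, 0.033, 0.0099 and -0.077. Psma6 had the smallest change of the class, with 1854, 1980.2, 2287 and 1979 on the L-NAME-fed arrays, 1984, 2227, 2088 and 1978 on the methionine-fed arrays and 2130.4, 2273, 1890.2, 2017 and 1938 on the control arrays. The groups overlapped (log2 change -0.019 ± 0.075, adjusted p = 0.863), and Psma1 likewise had a change of 0.03.

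The beta ring carries the proteolytic sites, in Psmb5 with chymotrypsin-like, Psmb7 with trypsin-like and Psmb6 with caspase-like activity, and its other subunits are structural. Psmb5 had the largest fall of all 36 genes. It had signals of 670.2, 622, 688 and 579 on the L-NAME-fed arrays, 1230.0, 1479, 1355 and 1297 on the methionine-fed arrays and 1320.4, 1446, 1335, 1422 and 1274 on the control arrays. The 4 L-NAME-fed values lay close together, below every array of the other groups, and the gene was 2.13-fold lower than in control (log2 change -1.09 ± 0.075, adjusted p = 2.44e-08; exact permutation test, 2-sided, p = 0.00794). The fall was -0.96 with quantile normalization and -1.51 with centring. Psmb7 had 1613, 1668, 1875 and 1656 on the L-NAME-fed arrays, 1587, 1955, 1828 and 1617 on the methionine-fed arrays and 1758, 1811, 1709, 1853 and 1703 on the control arrays. Here the groups overlapped, and the log2 change was -0.055 ± 0.073, adjusted p = 0.581.

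Psmb2, a structural neighbour, had the largest rise of the ring. Its signal was 364, 296, 376 and 327 on the L-NAME-fed arrays, 236, 192, 147 and 177 on the methionine-fed arrays and 183, 172, 142, 165 and 142 on the control arrays. The lowest L-NAME-fed array was above the highest array of either other group, with a 2.12-fold difference from control (log2 change 1.09 ± 0.13, adjusted p = 5.62e-06; 0.96 with quantile normalization and 0.66 with centring). Psmb1 was higher by 0.40 (adjusted p = 0.000246), a call that was lost at -0.025 with centring. Psmb4 was lower at -0.25 on the log2 scale as deposited (adjusted p = 0.00466) but higher by 0.16 with quantile normalization. Psmb3 had a change of 0.17 that did not pass (adjusted p = 0.0946).

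**Figure D3:**
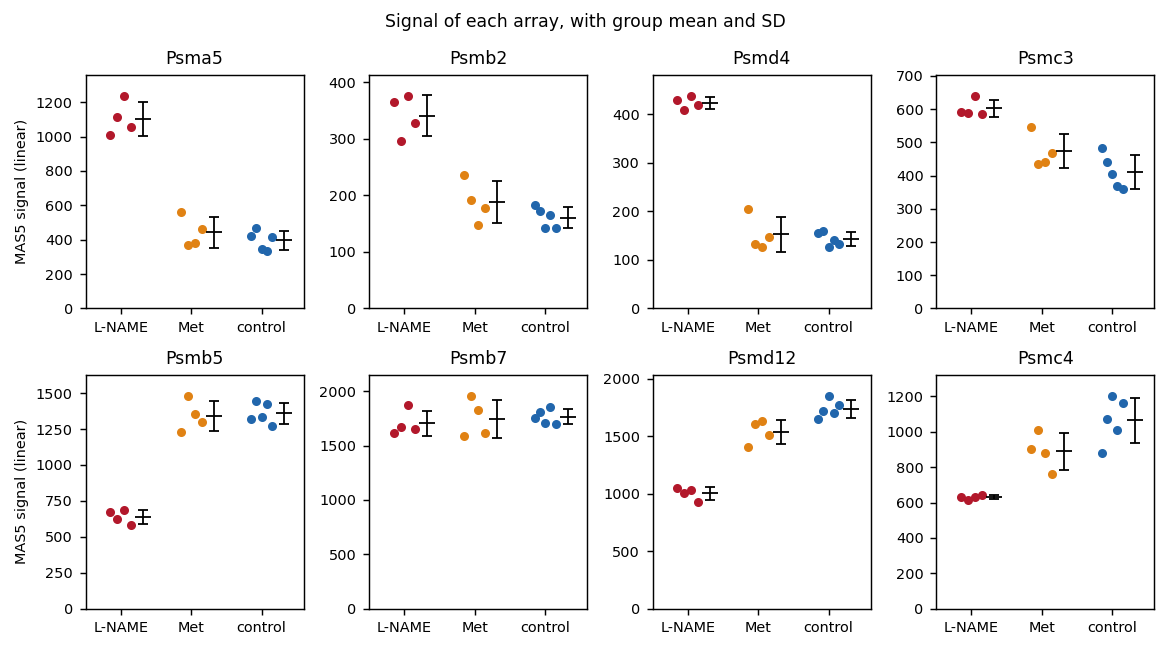
MAS5 signal of 8 proteasome genes on every array, with L-NAME-fed, methionine-fed and control arrays from left to right in each panel, a point per array and the group mean with its SD beside the points. Psma5, Psmb2, Psmd4 and Psmc3 in the upper row have all L-NAME-fed points above the other groups, Psmb5, Psmd12 and Psmc4 in the lower row have them below, and for Psmb7 the groups overlap.

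The 6 ATPases form the ring that unfolds the substrate and opens the gate. Of these, 2 were higher, 3 were lower and Psmc5 had a change of -0.086 that did not pass (adjusted p = 0.453, though it was called lower at -0.51 with centring). Psmc3 had the largest rise, with 592, 589, 640.1 and 587 on the L-NAME-fed arrays, 547, 435, 442 and 467 on the methionine-fed arrays and 484, 439.8, 405, 369 and 359 on the control arrays. The L-NAME-fed arrays lay above all others, and the log2 change was 0.56 ± 0.10, adjusted p = 0.000197, with 0.57 under quantile normalization and 0.13, no longer past the test, under centring. Psmc4 had the largest fall of the ring. Its signal was 633, 616, 634 and 642 on the L-NAME-fed arrays, 905, 1011, 881 and 761 on the methionine-fed arrays and 882, 1071, 1202, 1012 and 1161 on the control arrays. The L-NAME-fed arrays lay in a narrow band below all 9 other arrays (log2 change -0.75 ± 0.10, adjusted p = 8.73e-06), 1.68-fold below control, and the gene stayed lower at -0.65 with quantile normalization and -1.17 with centring. With the mean of its probe sets the call was lost, at -0.36 (adjusted p = 0.615). Psmc2 was lower at -0.49 (adjusted p = 3.04e-05), also under both other scalings. Psmc6 was lower at -0.32 (adjusted p = 0.000926) and Psmc1 was higher by 0.26 (adjusted p = 0.00936), but Psmc6 did not pass with quantile normalization at -0.093 and Psmc1 did not pass with centring at -0.16. The dimmer probe sets of Psmc6 did pass with quantile normalization, as given below.

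Among the 11 non-ATPase subunits 5 were higher and 5 were lower. Psmd4, a receptor that binds ubiquitin chains, had the largest change of all 36 genes. It had signals of 428, 409, 438 and 418 on the L-NAME-fed arrays, 204, 133, 127 and 146 on the methionine-fed arrays and 156, 160.3, 125.6, 140.5 and 132 on the control arrays. The L-NAME-fed values were close to each other and at least 409, above a highest value of 204 elsewhere, a 2.97-fold difference from control (log2 change 1.57 ± 0.13, adjusted p = 1.11e-07; exact permutation test, 2-sided, p = 0.00794). The change was 1.47 with quantile normalization and 1.15 with centring. Psmd8 and Psmd3, both of the lid, the part of the 19S particle that holds the deubiquitinase, were higher by 1.14 and 0.80 (adjusted p = 5.21e-06 and 0.000139) under all 3 scalings. Psmd14, the deubiquitinase itself, and the lid subunit Psmd13 were higher by 0.63 and 0.53 (adjusted p = 3.81e-05 and 0.00049), with 0.20 and 0.11 and no call under centring. The dimmer probe sets of Psmd14 kept their call under centring, as given below.

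Psmd12, a further lid subunit, had the largest fall of the class. Its signal was 1049, 1003, 1038 and 928 on the L-NAME-fed arrays, 1404, 1611, 1631 and 1508 on the methionine-fed arrays and 1649, 1719, 1850.1, 1703 and 1772 on the control arrays. The L-NAME-fed arrays were the lowest, and the highest methionine-fed array was still below the lowest control array. The gene was 1.73-fold lower in L-NAME-fed than in control hearts (log2 change -0.79 ± 0.067, adjusted p = 1.42e-07; -0.57 with quantile normalization and -1.22 with centring). Psmd2, a scaffold of the base on which ubiquitin-like shuttle proteins dock, was lower at -0.39 (adjusted p = 0.00122), and Psmd7, the partner of Psmd14, at -0.24 (adjusted p = 0.012), both under all 3 scalings. A dimmer Psmd7 probe set was higher by 1.61, as given below, so that the direction of this gene depends on the probe set. Psmd1, the other large scaffold, at -0.28 (adjusted p = 0.018) and the lid subunit Psmd6 at -0.17 (adjusted p = 0.0494) were lower as deposited and lost the call with quantile normalization at -0.20 and 0.063. For Psmd6 the L-NAME-fed signals of 1064, 1139, 1273 and 1099 overlapped the control signals of 1219, 1309.5, 1289.9, 1289.8 and 1307, and the call was also lost with 9 of the 13 arrays left out singly. Psmd11, which joins the lid to the core, had a change of 0.057 (adjusted p = 0.514).

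The 3 chaperones that assemble the base of the 19S particle did not pass the test with the brightest probe set and the signals as deposited. Psmd9 had 81.1, 47.8, 76.1 and 74.9 on the L-NAME-fed arrays, 48.4, 78.6, 59.6 and 41.3 on the methionine-fed arrays and 49.7, 52.1, 64.2, 68.1 and 52.8 on the control arrays. One L-NAME-fed array was below every control array while the other 3 were above them, and the log2 change was 0.27 ± 0.20, adjusted p = 0.309. A dimmer Psmd9 probe set, with a mean log2 signal of 3.21, below the median of the probe sets tested, was higher by 1.72 (adjusted p = 0.00144), and with the mean of the gene's probe sets Psmd9 was called higher at 0.99 (adjusted p = 0.00527). Psmd10, also known as gankyrin, had 537, 475, 465 and 524 on the L-NAME-fed arrays, 575, 558, 593 and 554 on the methionine-fed arrays and 524, 445, 729, 579.7 and 546 on the control arrays. The L-NAME-fed arrays overlapped the control arrays (log2 change -0.16 ± 0.11, adjusted p = 0.269) and lay below all methionine-fed arrays, where the change did not pass either (-0.19 ± 0.12, adjusted p = 0.215; exact permutation test, 2-sided, p = 0.0286). Psmd5 had a change of -0.069 (adjusted p = 0.662) against control. With centring Psmd10 and Psmd5 were called lower, at -0.58 and -0.49.

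Of the activators, which cap the core in place of the 19S particle, Psme4, known as PA200, was lower. It had 928, 1027, 979 and 815 on the L-NAME-fed arrays, 1106, 1247, 1347 and 1252 on the methionine-fed arrays and 1426, 1458, 1365, 1414 and 1490.1 on the control arrays. All L-NAME-fed arrays were below all others, and all methionine-fed arrays were below all control arrays. The log2 change in L-NAME-fed hearts was -0.61 ± 0.077, adjusted p = 7.36e-06, with -0.41 under quantile normalization and -1.04 under centring. A dimmer Psme4 probe set was higher by 1.36, as given below. Psme1 and Psme2, which together form the activator PA28, did not pass. Psme2 had 1027, 909, 1079.6 and 1096 on the L-NAME-fed arrays, 1158, 1117, 1240.2 and 966 on the methionine-fed arrays and 1144, 861, 933, 1011 and 902 on the control arrays, with a log2 change of 0.087 ± 0.10, adjusted p = 0.495, and Psme1 had a change of -0.022 (adjusted p = 0.826).

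The size and sign of the change varied with how bright a probe set was. Over all probe sets the median log2 change in L-NAME-fed against control hearts was 0.42 below the 50th percentile of the mean signal, 0.28 from the 50th to the 75th percentile, 0.069 to the 90th, -0.11 to the 95th and -0.36 above it. Proteasome genes are bright, with 16 of the 36 in the top bin, 10 in the next, 8 from the 75th to the 90th percentile and 2 below that. Across the 36 genes the change fell with the mean log2 signal (Spearman's rho = -0.56, Pearson's r = -0.53), against a rho of -0.17 over all probe sets, where genes on the same arrays are not independent replicates. In the top bin 2 of 16 proteasome genes were higher and 7 lower, with a median of -0.038, whereas 8.76% of all probe sets of that bin were higher and 64.8% lower. From the 75th to the 90th percentile 7 of 8 were higher and 0 lower, with a median of 0.59, whereas 36.5% of all probe sets there were higher and 29.6% lower. Set against the median of its own bin, a comparison chosen after the values were seen, the change of 25 of the 36 genes was above and that of 11 below. This held for 12 of 13 core subunits, with Psmb5 as the exception at -0.73, and for 11 of 17 regulatory subunits.

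**Figure D4:**
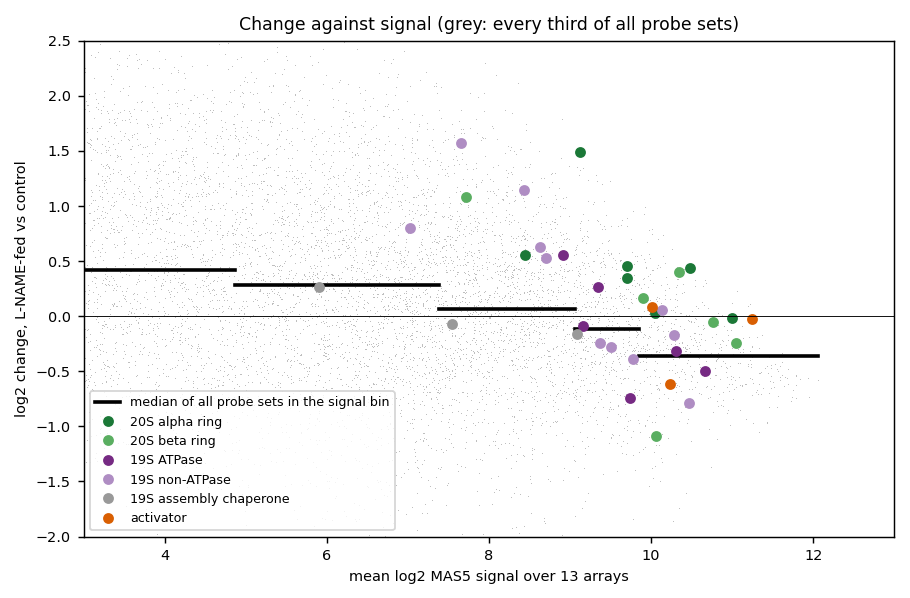
Log2 change in L-NAME-fed against control hearts (vertical axis) against the mean log2 signal over 13 arrays (horizontal axis) for each proteasome gene, with the median change of all probe sets in each signal bin as a line. The line falls from 0.42 in the dimmest bin to -0.36 in the brightest, and 25 of the 36 genes lie above it.

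Several genes were read by more than one probe set, and these did not always move together. Of the 36 genes, 9 had several single-symbol probe sets and 5 of these had 2 or more at or above the median signal. For 2 of the 5, Psmd7 and Psme4, one probe set was called higher and another lower in L-NAME-fed against control hearts. The brightest Psmd7 probe set was lower at -0.24, and the other was higher by 1.61 (adjusted p = 1.26e-07), with signals of 257, 258, 305 and 278 on the L-NAME-fed arrays, 136, 94.0, 94.6 and 102 on the methionine-fed arrays and 103, 98.6, 74.0, 91.7 and 83.8 on the control arrays. Neither overlapped between L-NAME-fed and control arrays, and both directions stood under quantile normalization and centring. The third Psme4 probe set by signal had 304, 343, 330.4 and 309 on the L-NAME-fed arrays, 158, 124, 136 and 149 on the methionine-fed arrays and 139.8, 143, 98.4, 135 and 117 on the control arrays. It was higher by 1.36 (adjusted p = 2.35e-07), while the brighter ones were lower at -0.61 and -0.83. Psmd14 was higher in all 3 of its probe sets, by 0.63, 1.91 and 1.76. Under centring the dimmer ones stayed higher, by 1.48 and 1.34, and only the brightest lost its call. Psmc6 was lower in all 3, at -0.32, -0.75 and -0.91. With quantile normalization the dimmer Psmc6 probe sets stayed lower, at -0.59 and -1.03, and only the brightest lost its call. The bright pair of Psmd11 had changes of 0.057 and 0.038, and neither passed. Which part of each transcript a probe set reads was not analysed here. With the mean of all probe sets of a gene in place of the brightest, 7 of the 36 genes were lower, Psmd7 had a change of 0.68 and the Psme4 call was lost at -0.029. Psmc4, whose other probe set had a mean log2 signal of -0.79, also lost its call against methionine-fed hearts, at -0.54 (adjusted p = 0.481). Psmd6 also lost its call, at -0.17, and Psmd9 gained one as given above.

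**Figure D5:**
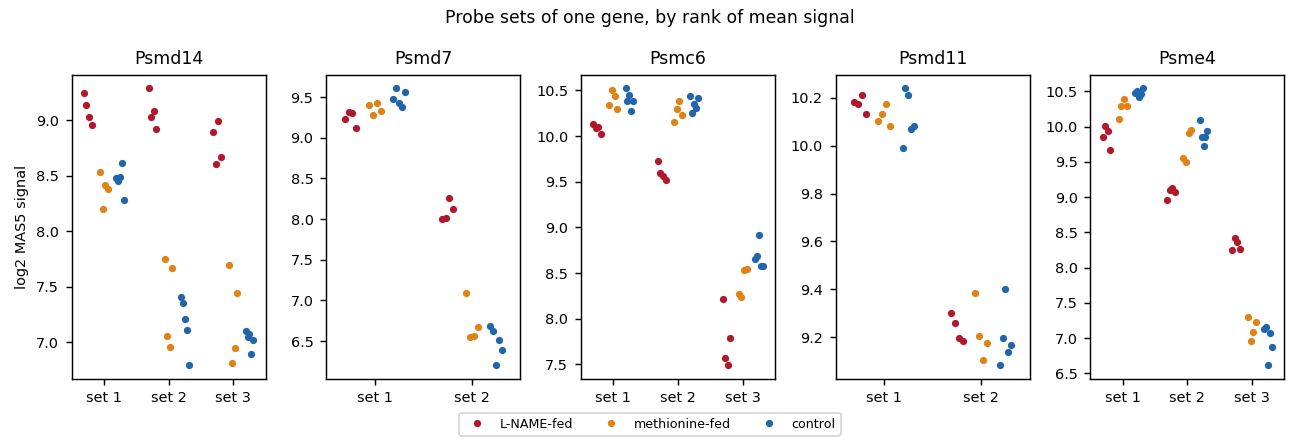
Log2 signal on every array (vertical axis) for the probe sets of Psmd14, Psmd7, Psmc6, Psmd11 and Psme4 that lie at or above the median signal, ranked by mean signal along the horizontal axis, with L-NAME-fed, methionine-fed and control arrays side by side. For Psmd7 and Psme4 the dimmest probe set is higher on the L-NAME-fed arrays while the brightest is lower.

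In methionine-fed hearts 0 of the 36 genes passed the test in either direction against control (limma, adjusted p under 0.05), as did 0 of all probe sets (0% higher and 0% lower). Before adjustment, with p under 0.05, 1 gene was higher and 3 were lower, against 5.72% and 4.97% of all probe sets, and the methods' t-test gave 0 higher and 2 lower at that threshold and 0 after adjustment. The median log2 change was 0.026, the range was -0.26 to 0.21, and the medians of the core and the regulatory subunits were 0.054 and 0.0036. The 95% confidence interval of every gene stayed within a 1.5-fold change either way, with the widest bounds at 1.42-fold higher and 1.39-fold lower, before any adjustment for the number of genes.

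The genes with the smallest p in each class show how small the differences were. The ATPase Psmc4 had a log2 change of -0.26 ± 0.10, adjusted p = 0.365, with the signals given above overlapping between the groups (exact permutation test, 2-sided, p = 0.0556). Psmd12 and Psme4 were the 2 of 36 genes without overlap, lower on all 4 methionine-fed arrays than on all 5 control arrays (as were 1.55% of all probe sets), with changes of -0.18 ± 0.067, adjusted p = 0.372 and -0.21 ± 0.077, adjusted p = 0.362. The exact permutation test gave p = 0.00794 for each, before any adjustment over the genes examined. The gene with an unadjusted p under 0.05 in the other direction was Psme2, at 0.21 ± 0.10, adjusted p = 0.45. In the core, Psmb3 had 980.2, 918, 1112 and 1015 on the L-NAME-fed arrays, 1104, 967, 966 and 963 on the methionine-fed arrays and 989, 936, 871, 828 and 857 on the control arrays. One methionine-fed array stood above the others, and the change was 0.16 ± 0.078, adjusted p = 0.488. Psma2 had 1632, 1675, 1831 and 1732 on the L-NAME-fed arrays, 1497, 1387, 1329 and 1333 on the methionine-fed arrays and 1292, 1422, 1181, 1248 and 1216 on the control arrays. Its methionine-fed signals lay between those of the other groups and overlapped the control signals (log2 change 0.13 ± 0.069, adjusted p = 0.538), while it was higher by 0.43 ± 0.069, adjusted p = 7.55e-05 in L-NAME-fed hearts. The chaperone Psmd5 had 177, 187, 166 and 184 on the L-NAME-fed arrays, 232, 151, 195 and 211 on the methionine-fed arrays and 180.3, 191, 196, 177 and 190.4 on the control arrays, with a change of 0.061 ± 0.11, adjusted p = 0.887, and Psmb5 had a change of -0.022 with a 95% confidence interval of -0.18 to 0.14.

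Set against methionine-fed hearts, L-NAME-fed hearts had 13 of the 36 genes higher and 9 lower, where 25.4% and 14.9% of all probe sets were called in these directions. The median log2 change was -0.013. This comparison shares the L-NAME-fed arrays with the one against control, and it tests directly whether the treatments differed. The smallest p-values belonged to Psmb5 among the lower genes, with a log2 change of -1.07 ± 0.079, adjusted p = 9.51e-08, and to Psmd4 among the higher ones, with 1.498 ± 0.14, adjusted p = 5.95e-07. Next came Psma5 with 1.33 ± 0.14, adjusted p = 1.73e-06 and Psmd12 with -0.61 ± 0.07, adjusted p = 5.13e-06. For each of the 4 the L-NAME-fed and methionine-fed arrays did not overlap (exact permutation test, 2-sided, p = 0.0286, the smallest that 4 arrays against 4 allow), and their directions were the same with quantile normalization and centring. Psmc4 and Psme4 were lower at -0.49 and -0.40 on the log2 scale. Under centring 5 genes were higher and 21 lower, and under quantile normalization 18 were higher and 5 lower. Of all probe sets at or above the median signal, 60.7% were called in either direction under centring and 56.9% under quantile normalization. Shares by direction were not counted for this comparison under these 2 scalings.

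Genes that serve the proteasome were read for comparison, each by its brightest probe set, in 6 lists with 49 measured genes. In L-NAME-fed against control hearts 16 of these were higher and 17 lower, with a median of 0.072. Of all probe sets 28.7% were higher and 17% lower, which is also the background for each list below. At or above the median signal 64.6% were called in either direction. In methionine-fed hearts 0 passed the limma test. At an unadjusted p under 0.05 there, 7 were higher and 0 lower, against 5.72% and 4.97% of all probe sets. The immunoproteasome subunits replace the catalytic subunits of the core, mainly after interferon. Psmb8, the counterpart of Psmb5, was higher by 0.89 (adjusted p = 0.00139; 0.80 with quantile normalization and 0.47 with centring). Psmb10, the counterpart of Psmb7, was higher by 0.51 (adjusted p = 0.0301), with 0.32 and no call under quantile normalization, and Psmb9 had a change of -0.015. Of 9 assembly factors and inhibitors 1 was higher and 6 were lower. The lower ones included the alpha ring assembly chaperones Psmg1 at -0.28 and Psmg2 at -0.57, another assembly chaperone, Psmg4, at -0.57 and the core maturation factor Pomp at -0.31, which was 0.12 with quantile normalization. The higher one, Akirin2, was dim, with a mean signal of 0.97.

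Of 6 receptors and deubiquitinases bound to the 19S particle, 3 were higher and 2 lower. Adrm1, an ubiquitin receptor like Psmd4, was lower at -1.23 (adjusted p = 1.28e-08), while Psmd4 was higher, and Usp14, a deubiquitinase, was lower at -0.52 (adjusted p = 1.64e-05). Sem1, a small lid subunit, was higher by 0.87 (adjusted p = 1.14e-06). Of 10 transcription factors that act on proteasome genes and their processing enzymes, 2 were higher and 3 lower. Nfe2l1, which induces proteasome genes when proteasome activity is short, was lower at -0.69 (adjusted p = 2.72e-06). Nfya, the subunit of NF-Y that contacts the CCAAT box, was higher by 0.80 (adjusted p = 2.94e-05). The other subunits of NF-Y, Nfyb and Nfyc, were measured and were not among the 2 genes called higher. A link of NF-Y to the changes of the proteasome genes was not tested. Among small Maf proteins, Mafk was higher by 0.98 and Maff lower at -1.05. These directions were the same with quantile normalization and centring.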

How the data were processed

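The authors derived the intensity of each probe set with MAS5, per their processing notes, and deposited it on a linear scale with each array at a trimmed mean of 150 (2% off each end). No further normalization was applied in the main comparison. After 57 control probe sets of 31099 were left out, log2 values of 31042 probe sets were fitted with limma 3.58.1 in R 4.3.3 over all 13 arrays, with a coefficient per group, no covariate and a trended variance, and p-values were Benjamini-Hochberg adjusted over all of them (threshold 0.05). The model was tested on simulated data with independent noise and no shift between arrays, which does not bear on the scaling between arrays. Errors of log2 changes are standard errors and folds are antilogs. Gene symbols come from the platform annotation, in which 20826 probe sets had 1 symbol, 436 several and 9780 none.

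The members, gene lists, cell type markers and tests were chosen with earlier results of these data known. Every array is given for catalytic subunits, for the largest and smallest L-NAME-fed change and the smallest methionine-fed p per class, and for probe sets in conflict. The gene lists were immunoproteasome, assembly factors and inhibitors, receptors and deubiquitinases, transcription factors, ubiquitin and shuttle factors, and cardiac ubiquitin ligases. Alternatives were quantile normalization, array median centring, an offset of 16, removal of probe sets under the median signal, a fit of only the groups compared, an untrended variance, the methods' t-test, a replicate block, averaging a gene's probe sets and leaving out each array in turn. The variance stabilization named in the methods was not repeated. The number of arrays limits the precision.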

Additional observations from a re-analysis of the deposited data

Results flagged for a closer look

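In 5 of 108 groups of arrays (36 genes in 3 groups) a single array lay far from the others of its group by Dixon's ratio, where chance gives about 1 in 20. On L-NAME-fed arrays, Psmc3 was highest on replicate 3 at 640.1, against 587 to 592 on the other arrays of the group. Psmd3 was highest on L-NAME-fed replicate 1 at 207, against 178 to 179. Psmd9, the dimmest of the chaperones, was lowest on L-NAME-fed replicate 2 at 47.8, against 74.9 to 81.1, and without this array its log2 change against control was 0.44 instead of 0.27. On methionine-fed arrays, Psmb3 was highest on replicate 1 at 1104, against 963 to 967. On control arrays, Psmd6 was lowest on replicate 1 at 1219, against 1289.8 to 1309.5. The 5 values came from 5 different arrays.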

How the results depend on the processing

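The scaling between arrays moved the counts most. In L-NAME-fed against control hearts, 22 genes were higher and 7 lower with quantile normalization, 5 higher and 21 lower with array median centring, and 7 lower with a gene's probe sets averaged. Against methionine-fed hearts, 5 were higher and 21 lower with centring and 5 lower with quantile normalization. The cause was not tested. The median log2 change against control of all genes, core subunits and regulatory subunits was 0.30, 0.49 and 0.063 with quantile normalization and -0.38, -0.078 and -0.51 with centring. With the mean of all probe sets it was 0.13 for all genes and 0.21 for regulatory subunits, and with each array left out in turn it was -0.13 to -0.017 for regulatory subunits. Against methionine-fed hearts the medians were 0.22, 0.37 and 0.0003 with quantile normalization, -0.38, -0.13 and -0.44 with centring, and 0.068 (all) and 0.10 (regulatory) with the mean of all probe sets, and regulatory subunits ranged from -0.11 to -0.0005 with arrays left out. In methionine-fed against control hearts centring gave -0.032 (all) and -0.054 (regulatory), and the mean of all probe sets gave 0.10 (regulatory).

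Among single genes in L-NAME-fed against control hearts, the sign turned with centring for Psma1 (-0.40), Psma7 (-0.078), Psmb1 (-0.025), Psmb3 (-0.26), Psmc1 (-0.16), Psmd9 (-0.16), Psmd11 (-0.37) and Psme2 (-0.34). It turned with quantile normalization for Psma6 (0.40), Psmb4 (0.16), Psmb7 (0.32), Psmd6 (0.063), Psmd9 (-0.045) and Psme1 (0.44), and with the mean of all probe sets for Psmd7 (0.68) and Psme1 (0.031). With arrays left out in turn, Psma1 ranged from -0.028 to 0.067, Psma6 from -0.079 to 0.022 and Psme1 from -0.054 to 0.0076. In methionine-fed hearts, Psmb5 was 0.020 with quantile normalization and -0.071 to 0.018 with arrays left out, Psmd5 was -0.024 to 0.18 with arrays left out and Psmc4 was 0.18 with the mean of all probe sets. Against methionine-fed hearts, Psmc3 was -0.014 with centring and Psme4 0.038 with the mean of all probe sets. Over 52 single-gene results, 1079 values under the alternatives kept direction and side of the threshold, 24 lost a call, 12 gained one and 29 turned.

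Replicate numbers were not taken to pair the arrays. Arrays of the same number correlated between -0.21 and 0.24 in their deviations from the group means. Arrays of different numbers were not compared, so that these values cannot exclude a pairing. With the replicate block, 14 genes were higher and 10 lower against control, 13 and 9 against methionine-fed hearts, and 0 in methionine-fed hearts. Leaving out single arrays gave 14 to 15 higher and 10 to 11 lower against control. No proteasome gene was read below the median signal of 29.2.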

Other observations

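Further lists bear on the delivery of proteins to the proteasome. Of 10 ubiquitin and shuttle genes, 5 were higher and 4 lower in L-NAME-fed against control hearts, where 28.7% and 17% of all probe sets were. Uba1, the main enzyme that activates ubiquitin, was lower at -1.23 (adjusted p = 7.25e-09, limma), while Vcp, the unfoldase that extracts ubiquitinated proteins, and its cofactor Nploc4 were higher by 0.86 and 1.18 and its other cofactor Ufd1 lower at -0.72. Of the shuttle proteins, Ubqln1 was higher by 1.17 and Ubqln2 lower at -0.42. These 6 directions were the same with quantile normalization and array median centring.

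Of 11 cardiac ubiquitin ligases, 3 were higher and 2 lower in L-NAME-fed against control hearts, against 28.7% and 17% of all probe sets. Fbxo32, known as atrogin-1, was higher by 1.76 at a mean signal of 18.5, below the median of the probe sets, and Cbl was higher by 1.63. Trim63, known as MuRF1, was higher by 0.40 (adjusted p = 0.03), which was 0.28 with quantile normalization and -0.022 with centring. Mdm2 and Stub1 were lower at -0.36 and -0.28. In methionine-fed hearts 0 genes of either list passed the test (limma). At an unadjusted p under 0.05 the counts were 2 and 1 higher and 0 lower, against 5.72% and 4.97% of all probe sets. Of the genes that matched the symbol pattern by spelling, Psme3ip1 was higher by 1.70 and Psmc3ip by 0.68 in L-NAME-fed hearts, and Psmc3ip lost the call with quantile normalization at 0.40 and with centring at 0.25.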
